A study of Homo sapiens with 27 samples.

Results

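The 9 chemokine genes CXCL1, CXCL2, CXCL3, CXCL5, CXCL8, CXCL9, CXCL10, CXCL11 and CCL20 and the cytokine gene IL32 were followed in colorectal cancer cells. They were chosen by symbol as 10 genes that epithelium can make to recruit or alert immune cells, and all 10 were found among the 17687 named genes of the array table. RNA was taken from 3 lines of human colorectal cancer cells (LIM1215, SW48 and Caco2), each in 3 states with 3 arrays per state, which makes 27 arrays. Resistant cells had survived 20 cycles of co-culture in a 10 cm dish with NK-CD16 cells, natural killer cells named for the Fc receptor CD16, plus cetuximab, an antibody to EGFR, at 1 ug per ml. Withdrawal cells were resistant cells grown for 20 more cycles with neither agent. Parental cells were the original line, grown out from a single clone. The lines were kept in different media, and LIM1215 medium also held hydrocortisone and insulin in all states. RNA came from cell pellets, and the labels describe no step that would take natural killer cells out of them. The labels do not say that the 3 replicates of a state came from separate cultures, so each p-value measures only the spread between these arrays.

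Chemokines are small secreted proteins that draw leukocytes along a gradient. CXCL1, CXCL2, CXCL3, CXCL5 and CXCL8 act on CXCR2, with CXCL8 also on CXCR1, and draw neutrophils; inflamed gut epithelium and colorectal tumours are known sources. CXCL9, CXCL10 and CXCL11 are interferon-induced ligands of CXCR3, which T cells and natural killer cells carry, and CCL20 draws CCR6-bearing dendritic cells, B cells and Th17 cells. IL32 is a cytokine of epithelium and of natural killer and T cells that induces other inflammatory genes. NF-kappaB drives most of these promoters, and IRF factors act on those of the CXCR3 ligands.

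The genes lie in 4 places of the genome (GRCh38.p14). On chromosome 4, CXCL8 (73740569 to 73743716), CXCL1 (73869393 to 73871308), CXCL5 (73995642 to 73998677), CXCL3 (74036589 to 74038689) and CXCL2 (74097040 to 74099195) form the neutrophil chemokine cluster. CXCL9 (76001275 to 76007509), CXCL10 (76021118 to 76023497) and CXCL11 (76033682 to 76036070) lie side by side further along the same chromosome. CCL20 is on chromosome 2 (227813842 to 227817556) and IL32 on chromosome 16 (3065403 to 3069530). RefSeq promoter windows, from 250 bases before to 50 after the annotated start, were found for all 10 genes.

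The letters GGAATTTCC, read on either strand, stood in the windows of 7 of the 10 genes, against 0.46% of all 35116 windows. This 9-base core of an NF-kappaB site was chosen after the sequences had been read. The wider form, GGG and CC with any 5 bases between them, was in all 10 genes and in 58.67% of all windows. The core overlaps a match of the wider form in each of the 7 genes except CXCL8. The stretches of 60 bases around the core are printed to show what the neutrophil chemokine genes, which split in their response here, share in sequence. The core is in capitals on the gene's strand. CXCL11, a CXCR3 ligand gene, is printed beside them. Its core lies on the other strand, so its capitals read GGAAATTCC. CXCL10 has the same letters 176 bases before its start, and its stretch around the core is not printed here.
CXCL8 (chr4:73740453-73740512, plus strand): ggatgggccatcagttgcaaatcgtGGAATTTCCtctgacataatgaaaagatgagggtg
CXCL1 (chr4:73869290-73869349, plus strand): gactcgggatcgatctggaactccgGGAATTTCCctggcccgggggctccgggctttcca
CXCL5 (chr4:73998733-73998792, minus strand): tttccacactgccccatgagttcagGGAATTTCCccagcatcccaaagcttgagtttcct
CXCL3 (chr4:74038733-74038792, minus strand): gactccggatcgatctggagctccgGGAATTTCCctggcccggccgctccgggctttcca
CXCL2 (chr4:74099238-74099297, minus strand): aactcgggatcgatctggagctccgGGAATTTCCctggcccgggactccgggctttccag
CXCL11 (chr4:76036111-76036170, minus strand): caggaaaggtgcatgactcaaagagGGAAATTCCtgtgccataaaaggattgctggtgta
The core began 77 to 91 bases before the start in the 5 neutrophil chemokine genes. Read position by position, 56 of the 60 bases were the same in CXCL1 and CXCL3, and 48 in CXCL1 and CXCL2. CXCL1 shared only 24 of 60 positions with CXCL8. The coding sequences of CXCL1, CXCL2 and CXCL3 are also close relatives, and whether probes for any of these 3 genes bind transcripts of the others was not tested, so their separate values are uncertain.

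The interferon-stimulated form, GAAA and GAAA with any 2 bases between them, was in the windows of CXCL9 and CXCL10 alone among the 10 genes, and in 3.57% of all windows. These stretches are shown because the letters stood in no other of the 10 windows, with the match in capitals.
CXCL9 (chr4:76007646-76007705, minus strand): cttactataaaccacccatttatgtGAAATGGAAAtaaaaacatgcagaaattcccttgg
CXCL10 (chr4:76023684-76023743, minus strand): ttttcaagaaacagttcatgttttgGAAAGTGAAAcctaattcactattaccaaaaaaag
TTCNNNGAA, the form bound by STAT factors, was in CXCL5 and CXCL11 and in 7.66% of all windows. TGANTCA, the form bound by AP-1, was in CXCL8 and CXCL11 and in 7.71% of all windows. A match says only that the letters are there.

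The deposited values were read as log2 intensities, so 1 unit stands for a doubling, and levels were compared neither between genes nor between lines. A group was called above background when its mean exceeded the 95th percentile of 612 negative control probe sets, which lay between 6.56 and 8.19 on single arrays. By that rule 8 of the 10 genes were above background in at least 1 group, and CXCL10 and CXCL11 were near background in all 9. For a gene near background, only the difference of the deposited values is given and no fold. Changes were tested with limma over all 17687 genes, and a gene was called at a Benjamini-Hochberg adjusted p under 0.05.

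Values of 2 kinds accompany the results. LIM1215 parental replicate 3 stood apart from its group: it correlated at 0.987 with replicates 1 and 2, while these correlated at 0.997 with each other and all pairs in other groups at 0.995 to 0.996. The interferon-induced gene IFIT1 was at 13.16 on that array, against 6.17 and 6.82 on the other two. LIM1215 values without it are therefore given too, for the 10 genes in the comparisons with parental cells and for other genes where its removal changed a printed call or moved the change by over 1.5 times. Differences between withdrawal and resistant cells do not use that array and kept their size without it. RNA typical of natural killer and T cells was also higher in resistant than in parental cells. Of 26 measured markers, 20 rose and 0 fell in LIM1215, where 10.8% of all genes were called. In SW48, 14 rose and 1 fell (22.7% of all genes called), and in Caco2, 21 rose and 0 fell (27.4%). Only 2 of these 26 markers were above background in resistant SW48 cells, and 1 in parental SW48 cells. Their log2 summed level was 12.94 to 13.23 in resistant and 9.72 to 9.98 in parental LIM1215 cells, 9.67 to 10.34 in resistant and 8.63 to 8.82 in parental SW48 cells, and 12.01 to 12.43 in resistant and 8.46 to 8.58 in parental Caco2 cells. After withdrawal it was 9.91 to 10 in LIM1215, 9.7 to 9.85 in SW48 and 8.3 to 8.37 in Caco2. The SW48 range after withdrawal lay within that of resistant SW48 cells. Epithelial markers defined the cells in every state: of 11 measured, 11 were above background in LIM1215, 7 or 8 in SW48 and 9 in Caco2. Fewer cells of a type and less RNA per cell cannot be told apart in such samples.

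**Figure D1:**
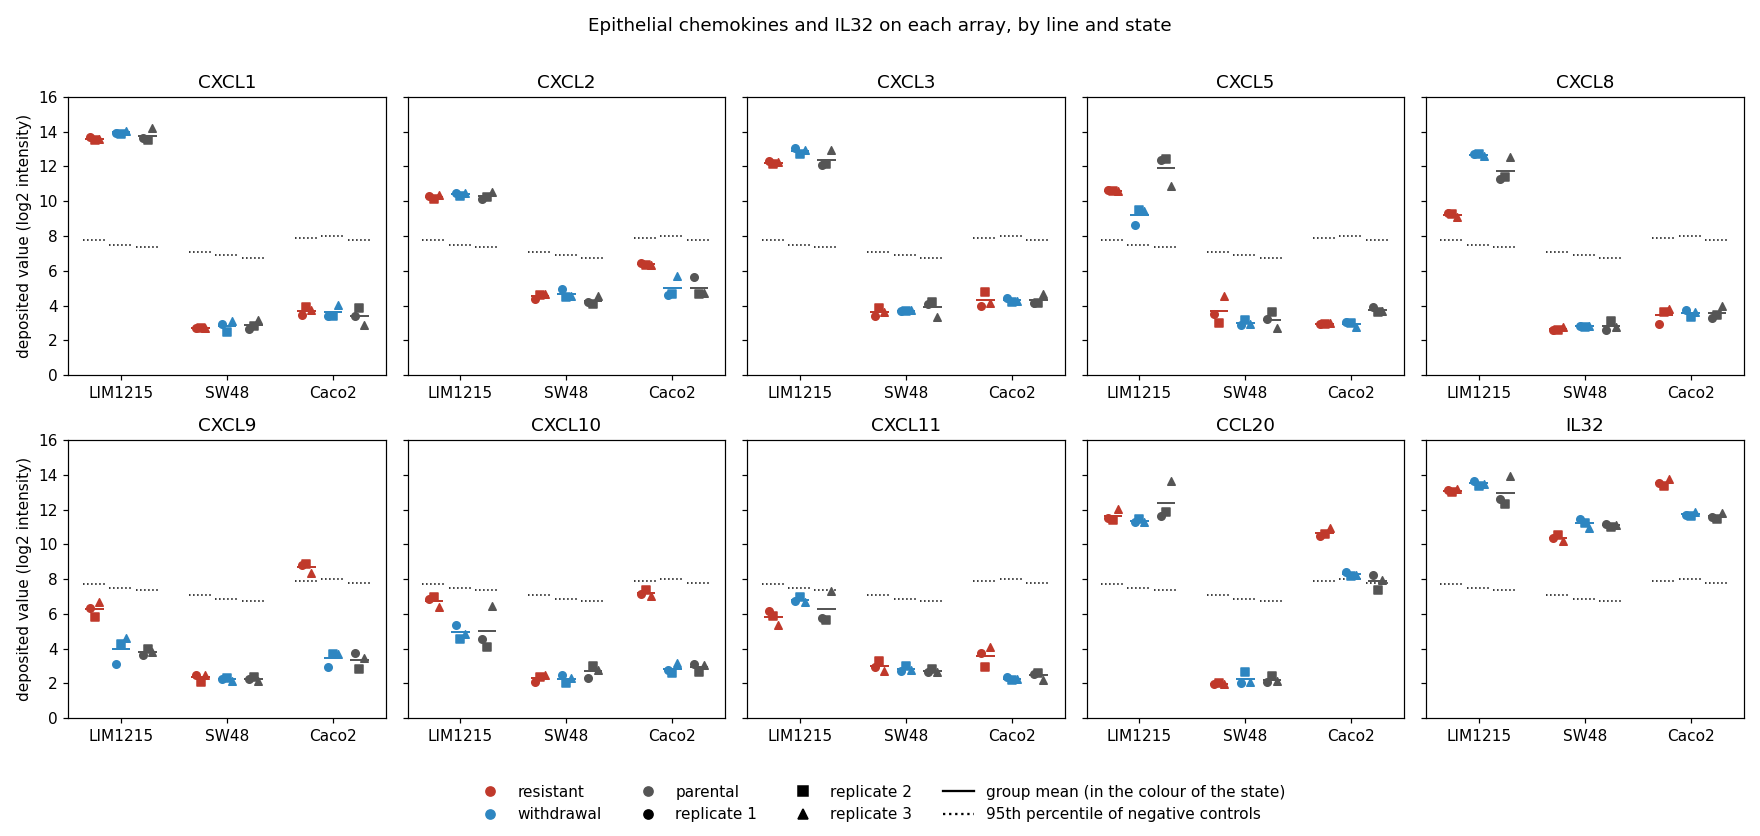
Deposited value (log2 intensity) of each of the 10 genes on each of the 27 arrays, by line and state, with resistant, withdrawal and parental arrays from left to right within a line. Points are single arrays, marker shapes are replicate numbers, short lines are group means of 3 arrays and dotted lines are the 95th percentile of the negative controls. The neutrophil chemokines lie above background in LIM1215 and not in SW48 or Caco2, CCL20 and IL32 stand higher in resistant Caco2 cells, and LIM1215 parental replicate 3 (triangle) lies apart for CXCL5, CXCL8, CCL20 and IL32.

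The first comparison asked which of the genes differed in cells that had outlived the natural killer cell challenge. In LIM1215, CXCL8 and CXCL5 were lower in resistant than in parental cells, while CXCL1, CXCL2, CXCL3, CCL20 and IL32 did not pass the test. In SW48, IL32 was lower in resistant cells and was the only one of the 10 genes above background. In Caco2, CCL20, IL32 and CXCL9 were higher in resistant cells and none of the 10 was lower. The count of called genes was 4 of 10 in LIM1215 (2 higher and 2 lower), where 10.8% of all genes were called (5.42% higher and 5.39% lower), 1 of 10 in SW48 (lower), where 22.7% were called (11.8% lower), and 6 of 10 in Caco2 (all higher), where 27.4% were called and 12.9% called higher. Without LIM1215 parental replicate 3, the LIM1215 count was 5 of 10 (3 higher and 2 lower), with 14.7% of all genes called. When values below background were raised to it, the count was 2 of 10 in LIM1215 and 3 of 10 in Caco2. In that setting 3147 of 17687 genes were called in Caco2, against 4842 in the main fit. The share of all genes in LIM1215 in that setting is not given here.

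CXCL8, the best known neutrophil attractant, was measured in LIM1215 at 9.34, 9.26 and 9.07 in resistant cells, at 12.71, 12.70 and 12.60 in withdrawal cells, and at 11.29, 11.42 and 12.56 in parental cells. The 3 states did not overlap, with resistant cells at the bottom and withdrawal cells at the top. CXCL8 was 5.79-fold lower in resistant than in parental cells (log2 change -2.53, SE 0.25, limma adjusted p = 1.22e-07). In withdrawal cells it was 10.9-fold higher than in resistant cells (log2 change 3.45, SE 0.25, limma adjusted p = 6.48e-10) and 1.88-fold higher than in parental cells (log2 change 0.91, SE 0.25, limma adjusted p = 0.0125). Parental replicate 3 lay close to the withdrawal arrays. Without it the change in resistant cells was -2.13 (limma adjusted p = 1.74e-07) and that in withdrawal cells against parental cells 1.31 (limma adjusted p = 5.84e-05).

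CXCL5, an epithelial neutrophil attractant, took another course in the same line. It was at 10.67, 10.57 and 10.61 in resistant cells, at 8.63, 9.47 and 9.45 in withdrawal cells, and at 12.37, 12.44 and 10.89 in parental cells. Again the states did not overlap, but here withdrawal cells were the lowest, and parental replicate 3 was near the resistant arrays. CXCL5 was 2.43-fold lower in resistant than in parental cells (log2 change -1.28, SE 0.35, limma adjusted p = 0.0158). It was 6.57-fold lower in withdrawal than in parental cells (log2 change -2.72, limma adjusted p = 9.91e-06) and 2.7-fold lower in withdrawal than in resistant cells (log2 change -1.43, limma adjusted p = 0.00291). Without parental replicate 3 the first of these changes was -1.79 (limma adjusted p = 0.000251) and the second -3.22 (limma adjusted p = 5.76e-08).

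CXCL1, CXCL2 and CXCL3, which encode the GRO chemokines, had high values in LIM1215 that varied little. CXCL1 was at 13.68, 13.53 and 13.59 in resistant, 13.93, 13.88 and 14.06 in withdrawal, and 13.62, 13.52 and 14.19 in parental cells. CXCL2 was at 10.29, 10.14 and 10.38 in resistant, 10.46, 10.32 and 10.45 in withdrawal, and 10.11, 10.22 and 10.50 in parental cells. CXCL3 was at 12.31, 12.13 and 12.24 in resistant, 13.05, 12.72 and 12.95 in withdrawal, and 12.11, 12.13 and 12.96 in parental cells. For each of the 3 genes, parental replicate 3 had the highest parental value, and resistant arrays lay within or close to the range of the parental ones. The change in resistant against parental cells was -0.18 for CXCL1 (SE 0.23), -0.01 for CXCL2 (SE 0.24) and -0.18 for CXCL3 (SE 0.23), with limma adjusted p of 0.735, 0.992 and 0.749. Without parental replicate 3 these changes turned to 0.03, 0.10 and 0.10, none past the test.

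Withdrawal set CXCL3 apart from the other two genes in its calls. CXCL3 was 1.6-fold higher in withdrawal than in resistant cells, with no overlap (log2 change 0.68, SE 0.23, limma adjusted p = 0.0321). For CXCL1 the same difference was 0.36 (SE 0.23, limma adjusted p = 0.267) and for CXCL2 0.14 (SE 0.24, limma adjusted p = 0.742), and the differences between the 3 genes were not tested. Against parental cells CXCL3 was at a log2 change of 0.50 in withdrawal cells (limma adjusted p = 0.141), which passed only without parental replicate 3 (0.78, limma adjusted p = 0.012).

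SW48 and Caco2 held the 5 neutrophil chemokines near background. In SW48 all 9 chemokines stayed between 1.95 and 4.98 on every array. In Caco2, CXCL1, CXCL3, CXCL5 and CXCL8 had group means from 2.93 to 4.31, and none of the 4 was called between states. Without LIM1215 parental replicate 3, which lowers the pooled SE, CXCL5 was called lower in resistant than in parental Caco2 cells (-0.80, limma adjusted p = 0.0306), both near background. CXCL2 was the exception in Caco2: it was at 6.47, 6.33 and 6.33 in resistant cells, at 4.61, 4.68 and 5.68 in withdrawal cells, and at 5.63, 4.64 and 4.70 in parental cells. All these values were under the background threshold, the resistant arrays lay above the others, and the difference of deposited values between resistant and parental cells was 1.39 (SE 0.24, limma adjusted p = 9.92e-05).

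**Figure D2:**
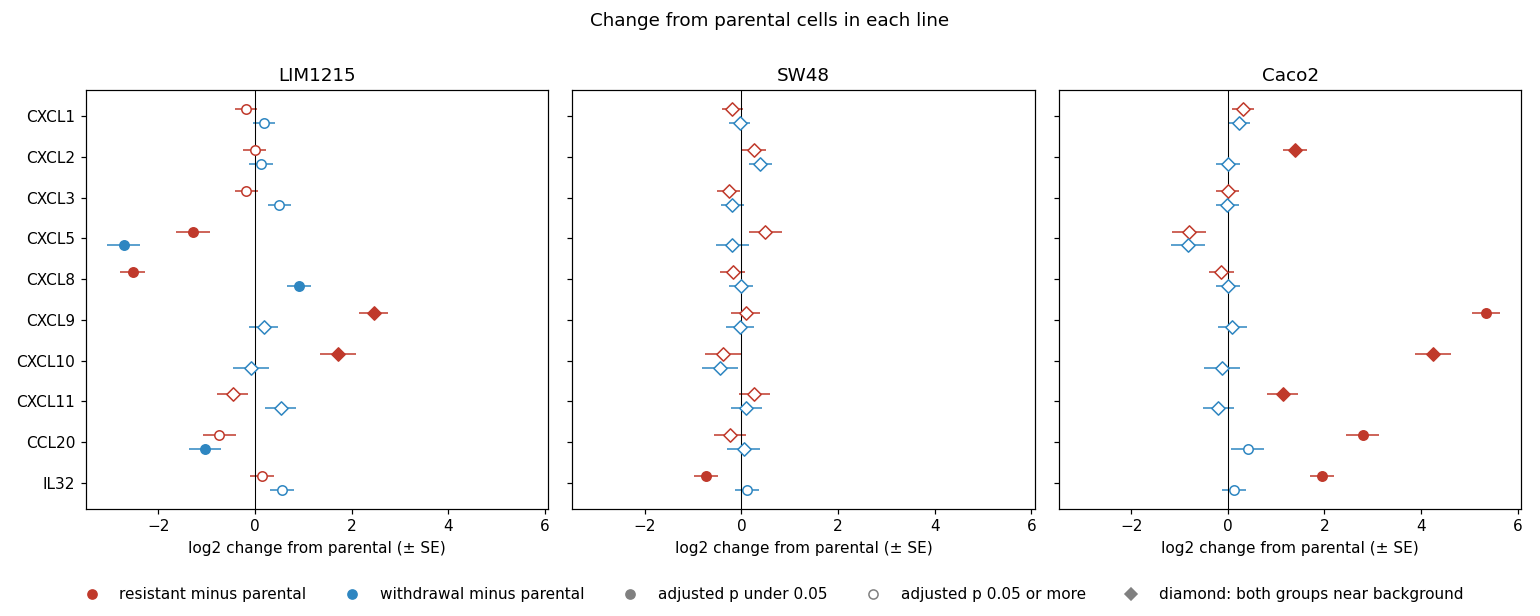
Log2 change from parental cells (x axis, with SE bars) for each gene in each line, in resistant cells (red) and withdrawal cells (blue). Filled symbols passed the limma test at an adjusted p under 0.05, and diamonds mark genes near background in both groups. CXCL8 is at -2.53 in resistant and 0.91 in withdrawal LIM1215 cells, whereas CCL20 and IL32 in Caco2 are at 2.79 and 1.95 in resistant cells and near 0 in withdrawal cells.

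Among the CXCR3 ligands, CXCL9 was the only one above background, and only in resistant Caco2 cells. There it was at 8.84, 8.86 and 8.37, against 2.93, 3.68 and 3.70 in withdrawal cells and 3.74, 2.83 and 3.48 in parental cells. The resistant arrays stood far above the rest, which overlapped each other. Because both other states were at background, the fold is a lower bound: CXCL9 was at least 1.91-fold higher in resistant than in parental cells (difference of deposited values 5.34, SE 0.30, limma adjusted p = 2.15e-12). In withdrawal cells it was at least 1.62-fold lower than in resistant cells (limma adjusted p = 3.41e-12).

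CXCL10 in Caco2 was at 7.15, 7.39 and 7.04 in resistant cells, at 2.76, 2.58 and 3.16 in withdrawal cells, and at 3.13, 2.66 and 3.06 in parental cells. On the resistant arrays it ranked at percentile 93.0 of the negative controls at most, just short of the threshold, and elsewhere at percentile 39.2 at most. The difference of deposited values between resistant and parental cells was 4.24 (SE 0.37, limma adjusted p = 4.97e-09). CXCL11 in Caco2 reached only 3.74, 2.93 and 4.11 in resistant cells, against 2.57, 2.58 and 2.22 in parental cells, and its called difference of 1.14 (limma adjusted p = 0.00882) lay wholly inside the range of the negative controls.

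LIM1215 showed the same ligands near background in all states. CXCL9 was at 6.32, 5.80 and 6.67 in resistant cells, at 3.11, 4.26 and 4.59 in withdrawal cells, and at 3.63, 3.99 and 3.80 in parental cells. The resistant arrays lay above both other states (difference from parental 2.46, SE 0.30, limma adjusted p = 2.26e-06; 2.45 without parental replicate 3). CXCL10 was at 6.86, 6.99 and 6.40 in resistant cells, at 5.38, 4.57 and 4.86 in withdrawal cells, and at 4.57, 4.09 and 6.43 in parental cells. Parental replicate 3 overlapped the resistant arrays, and the difference from parental was 1.71 with it (limma adjusted p = 0.00267) and 2.41 without it (limma adjusted p = 3.63e-07). CXCL11 moved otherwise: it was at 6.18, 5.85 and 5.35 in resistant cells, at 6.73, 6.94 and 6.69 in withdrawal cells, and at 5.77, 5.66 and 7.33 in parental cells. Withdrawal arrays lay above resistant ones (difference 0.99, limma adjusted p = 0.0222), while resistant and parental cells did not pass the test (-0.46, limma adjusted p = 0.464; 0.08 without parental replicate 3). CXCL11 was called higher in withdrawal than in parental cells only without that array (difference 1.07, limma adjusted p = 0.00243).

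CCL20, the CCR6 ligand of gut epithelium, was higher in resistant Caco2 cells and not after withdrawal. In Caco2 it was at 10.45, 10.58 and 10.93 in resistant cells, at 8.39, 8.19 and 8.25 in withdrawal cells, and at 8.24, 7.39 and 7.96 in parental cells. All resistant arrays lay above all others, and withdrawal and parental arrays overlapped. CCL20 was 6.91-fold higher in resistant than in parental cells (log2 change 2.79, SE 0.34, limma adjusted p = 7.76e-07) and 5.2-fold lower in withdrawal than in resistant cells (log2 change -2.38, limma adjusted p = 8.22e-06). The 0.41 between withdrawal and parental cells did not pass the test (SE 0.34, limma adjusted p = 0.673). Parental Caco2 cells were close to the background threshold, with 2 of 3 arrays above it.

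In LIM1215, CCL20 was at 11.51, 11.38 and 12.03 in resistant cells, at 11.29, 11.45 and 11.28 in withdrawal cells, and at 11.63, 11.84 and 13.66 in parental cells. A single array, parental replicate 3, stood far above the rest. The change in resistant cells was -0.74 (SE 0.34, limma adjusted p = 0.203), and -0.09 without that array. Withdrawal cells were called 2.05-fold lower than parental cells (log2 change -1.03, limma adjusted p = 0.0313), a call that was lost without parental replicate 3 (-0.39, limma adjusted p = 0.223).

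IL32 was above background in every group of all 3 lines. In Caco2 it was at 13.51, 13.37 and 13.78 in resistant cells, at 11.69, 11.66 and 11.84 in withdrawal cells, and at 11.56, 11.45 and 11.82 in parental cells. It was 3.85-fold higher in resistant than in parental cells (log2 change 1.95, SE 0.25, limma adjusted p = 1.68e-06) and 3.54-fold lower in withdrawal than in resistant cells (log2 change -1.83, limma adjusted p = 4.74e-06). Withdrawal and parental arrays overlapped, and their difference of 0.12 (SE 0.25) did not pass the test (limma adjusted p = 0.913).

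SW48 went the other way. There IL32 was at 10.36, 10.51 and 10.18 in resistant cells, at 11.46, 11.22 and 10.97 in withdrawal cells, and at 11.17, 11.00 and 11.12 in parental cells. The resistant arrays were the lowest, with no overlap. IL32 was 1.67-fold lower in resistant than in parental cells (log2 change -0.74, SE 0.25, limma adjusted p = 0.0331) and 1.82-fold higher in withdrawal than in resistant cells (log2 change 0.86, limma adjusted p = 0.0131). The SE is estimated over all 27 arrays and was 0.14 without LIM1215 parental replicate 3, which gave limma adjusted p = 0.000312 for the same change of -0.74. The call was lost in 6 of 16 alternative settings, with adjusted p from 0.000312 to 0.117 over them.

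In LIM1215, IL32 was at 13.10, 13.00 and 13.19 in resistant cells, at 13.65, 13.38 and 13.48 in withdrawal cells, and at 12.60, 12.33 and 13.91 in parental cells. The parental arrays spanned both other states because of replicate 3. With all arrays the change was 0.15 in resistant cells (SE 0.25, limma adjusted p = 0.811) and 0.56 in withdrawal cells (limma adjusted p = 0.125). Without parental replicate 3 it was 0.63 (SE 0.16, limma adjusted p = 0.00695) and 1.04 (SE 0.16, limma adjusted p = 2.32e-05), both past the test. Between withdrawal and resistant cells IL32 differed by 0.41, which did not pass with all arrays (SE 0.25, limma adjusted p = 0.253). The same difference passed only without parental replicate 3 (SE 0.14, limma adjusted p = 0.0311). Natural killer and T cells are themselves known to make IL32. Their summed marker level was higher in resistant than in parental cells of all 3 lines, among them SW48, where IL32 was lower. The part of such RNA in the IL32 values was not tested.

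**Figure D3:**
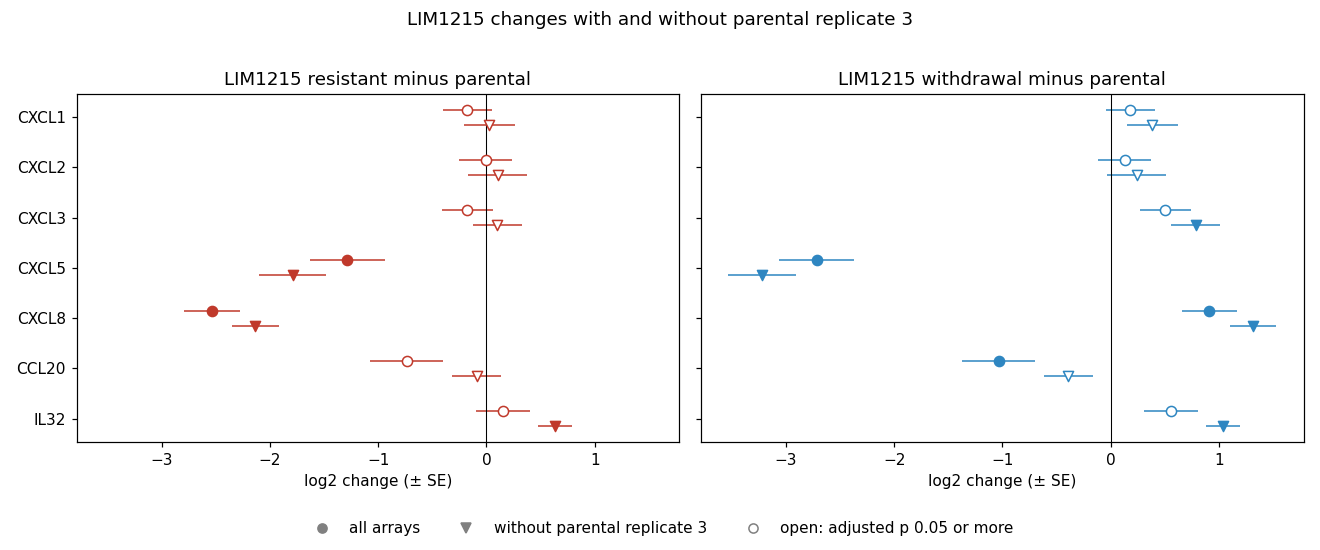
Log2 change (x axis, with SE bars) in LIM1215 for the 7 genes above background there, with all arrays (circles) and without parental replicate 3 (triangles), in resistant cells (left) and withdrawal cells (right) against parental cells. Filled symbols passed the limma test at an adjusted p under 0.05. CXCL5 and CXCL8 pass either way, IL32 passes in both states only without the array, and CCL20 passes in withdrawal cells only with it.

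After withdrawal, the calls against parental cells were few outside LIM1215. In SW48 and in Caco2, 0 of 10 genes were called, where 4.08% and 5.28% of all genes were; at an unadjusted p under 0.05 in limma, 0 passed in SW48, and CXCL5 alone, near background, in Caco2. In LIM1215, 3 of 10 were called (CXCL8 higher, CXCL5 and CCL20 lower), where 21.1% of all genes were (9.89% higher and 11.2% lower). Without parental replicate 3 it was 5 of 10, now 4 higher (CXCL3, CXCL8, CXCL11 and IL32) and 1 lower (CXCL5), where 28.4% of all genes were called. Between withdrawal and resistant cells, 6 of 10 were called in LIM1215 (27.9% of all genes; 7 of 10 and 31.2% without parental replicate 3), 1 of 10 in SW48 (22.2%) and 6 of 10 in Caco2 (24.7%, with 12.5% lower; all 6 genes were lower). The comparisons within a line share arrays, so they are not independent of each other.

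Whether the lines differed in their change was tested directly. LIM1215 and Caco2 differed for 7 of 10 genes, all lower in LIM1215, where 21.3% of all genes did and 10.8% were lower. The difference in change was -3.52 for CCL20 (SE 0.48, limma adjusted p = 6.96e-06) and -1.80 for IL32 (SE 0.35, limma adjusted p = 0.000542), and without parental replicate 3 it was -2.88 and -1.31. SW48 and Caco2 differed for 5 of 10 (25.9% of all genes), with -3.02 for CCL20 and -2.69 for IL32. LIM1215 and SW48 differed for 4 of 10 (18.3% of all genes), of which CXCL5 and CXCL8 had a group above background. When values below background were raised to it, these 3 counts were 4, 2 and 2, and the shares of all genes in that setting are not given here. For IL32 the difference between LIM1215 and SW48 was 0.89 (SE 0.35, limma adjusted p = 0.0845), and 1.37 without parental replicate 3 (limma adjusted p = 4.34e-05).

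Genes of the surrounding pathways were counted in resistant against parental cells, from lists chosen with earlier results of these data known. Over all genes 10.8% were called in LIM1215, 22.7% in SW48 and 27.4% in Caco2, and each list's count is to be read beside these shares. Of 6 receptors of these chemokines, only 1 was above background in any group, and 1 rose in LIM1215 (2 without parental replicate 3), 0 in SW48, and 1 rose and 1 fell in Caco2. Of 19 measured NF-kappaB subunits, brakes and targets, 3 rose and 3 fell in LIM1215, 8 rose and 3 fell in SW48, and 10 rose and 0 fell in Caco2. The median change of the list was -0.07 in LIM1215 (0.01 without parental replicate 3), 0.22 in SW48 and 0.60 in Caco2, beside -0.03, 0.00 and -0.03 over all genes. In Caco2, 12.9% of all genes rose and 14.5% fell. Without parental replicate 3, an alternative added after the data were seen, the LIM1215 counts were 3 up and 3 down here, 5 and 6 for the cytokine list that follows, 5 and 1 for the list of IRF, JAK and SOCS genes and their relatives, and 6 and 5 for the other chemokines. In that setting 14.7% of all genes were called in LIM1215, the share to set beside these counts and the receptor count without that array.

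TNFAIP3, which encodes the NF-kappaB brake A20, rose in all 3 lines, 2.03-fold in LIM1215, 3.15-fold in SW48 and 2.61-fold in Caco2 (limma adjusted p = 9.78e-05, 6.07e-08 and 5.21e-07). NFKBIA, which encodes another NF-kappaB inhibitor, also rose in all 3 lines, 1.62-fold, 1.51-fold and 1.56-fold (limma adjusted p = 0.00479, 0.00822 and 0.00387). For these 2 genes no pair of lines passed the test of the difference. CSF1, the macrophage growth factor, rose 4.29-fold in LIM1215, 1.85-fold in SW48 and at least 6.01-fold in Caco2 (limma adjusted p = 2.79e-08, 0.00127 and 2.04e-11).

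Other targets differed between lines in direction. PTGS2, the inducible cyclooxygenase, fell 9.61-fold in LIM1215 (log2 change -3.27, limma adjusted p = 3.16e-13) and rose 1.35-fold in Caco2 (limma adjusted p = 0.0387), a difference of -3.70 (limma adjusted p = 1.85e-11). It was 12.2-fold higher in withdrawal than in resistant LIM1215 cells, the same directions as CXCL8. ICAM1, the adhesion molecule that leukocytes bind, fell 2.51-fold in LIM1215 (limma adjusted p = 0.000606) and rose 1.9-fold in Caco2 (limma adjusted p = 0.00657), with limma adjusted p = 4.33e-05 for the difference. LCN2, an iron-binding defence protein, fell 2.08-fold in LIM1215 (limma adjusted p = 0.00164) and rose 20.5-fold in SW48 (limma adjusted p = 4.71e-13), a difference of -5.41 (limma adjusted p = 1.02e-11).

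Of 26 measured upstream cytokines and receptors, 4 rose and 8 fell in LIM1215, 3 rose and 4 fell in SW48, and 11 rose and 0 fell in Caco2. The 7 of 26 called in SW48 were a share close to the 22.7% over all genes. IL1B, an inducer of the neutrophil chemokines, was lower in resistant LIM1215 cells, where it was near background (limma adjusted p = 0.00854), and 5.41-fold higher in withdrawal than in parental cells (log2 change 2.44, limma adjusted p = 0.000693). Without parental replicate 3, parental cells were near background too. The difference of deposited values between resistant and parental cells was then -0.92 (limma adjusted p = 0.015), against -1.89 with all arrays. IL1B was then at least 6.86-fold higher in withdrawal than in parental cells (limma adjusted p = 1.32e-09). IL18 fell 2.07-fold in LIM1215 and 3.11-fold in SW48 (limma adjusted p = 0.00474 and 1.85e-05). Its change was higher in Caco2 than in either. The difference was -2.60 for LIM1215 minus Caco2 (limma adjusted p = 4.68e-06) and -3.19 for SW48 minus Caco2 (limma adjusted p = 2.03e-07). In Caco2, IL1R1, the receptor for IL-1, rose 3.41-fold (limma adjusted p = 4.29e-05) and IL6R 2.89-fold (limma adjusted p = 8.16e-06). IL6R was lower in resistant SW48 cells, where it was near background (difference of deposited values -0.84, limma adjusted p = 0.00605). IL17RC, a subunit of the IL-17 receptor, rose in all 3 lines, 2-fold in LIM1215, 2.26-fold in SW48 and at least 2.01-fold in Caco2.

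For the IRF, JAK and SOCS genes and their relatives in interferon signalling, 13 genes were measured: 4 rose and 0 fell in LIM1215, 5 rose and 1 fell in SW48, and 9 rose and 0 fell in Caco2. IRF1 rose 8.74-fold in LIM1215, 3.33-fold in SW48 and at least 7.82-fold in Caco2 (limma adjusted p = 2.68e-09, 1.3e-05 and 2.87e-10). IRF9, the DNA-binding subunit of the interferon-stimulated complex, rose 7.89-fold in LIM1215 (limma adjusted p = 0.0174), at least 8.03-fold in SW48 and at least 22.2-fold in Caco2. The LIM1215 value rests on parental replicate 3, at 13.09 against 7.18 and 8.01 on the other parental arrays: without it the rise was 28.1-fold, with no overlap (log2 change 4.81, limma adjusted p = 2.21e-11). In withdrawal Caco2 cells IRF1 and IRF9 were near background again, at least 6.58-fold and at least 18.6-fold lower than in resistant cells. SW48 thus had a called rise of IRF1 and IRF9 while CXCL9, CXCL10 and CXCL11 were between 2.02 and 3.28 on all of its arrays.

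Among 29 measured other chemokines, 6 rose and 4 fell in LIM1215, 5 rose and 0 fell in SW48, and 7 rose and 1 fell in Caco2. The 8 of 29 called in Caco2 were a share close to the 27.4% over all genes, and the 5 of 29 in SW48 a share below the 22.7% there. CCL5 and CCL3 are chemokines that activated natural killer cells are known to secrete. CCL5 was at least 21.8-fold higher in resistant LIM1215 cells (at least 28.8-fold without parental replicate 3), at least 1.39-fold higher in SW48 and at least 5.12-fold higher in Caco2. CCL3 was at least 7.9-fold higher in LIM1215 and at least 7.37-fold higher in Caco2, and near background in both states of SW48. The natural killer and T cell markers moved in the same groups, with 12 of 26 above background in resistant against 1 in parental LIM1215 cells, 2 against 1 in SW48 and 8 against 0 in Caco2, and their part in these values was not tested. CXCL16, a membrane-bound ligand of CXCR6 made by epithelium, fell 1.36-fold in LIM1215 (limma adjusted p = 0.00485) and rose 1.73-fold in SW48 (limma adjusted p = 3.26e-06) and 3.22-fold in Caco2 (limma adjusted p = 8.75e-12). CXCL17, a mucosal chemokine, was at least 3.22-fold higher in resistant Caco2 cells (limma adjusted p = 3.58e-07).

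**Figure D4:**
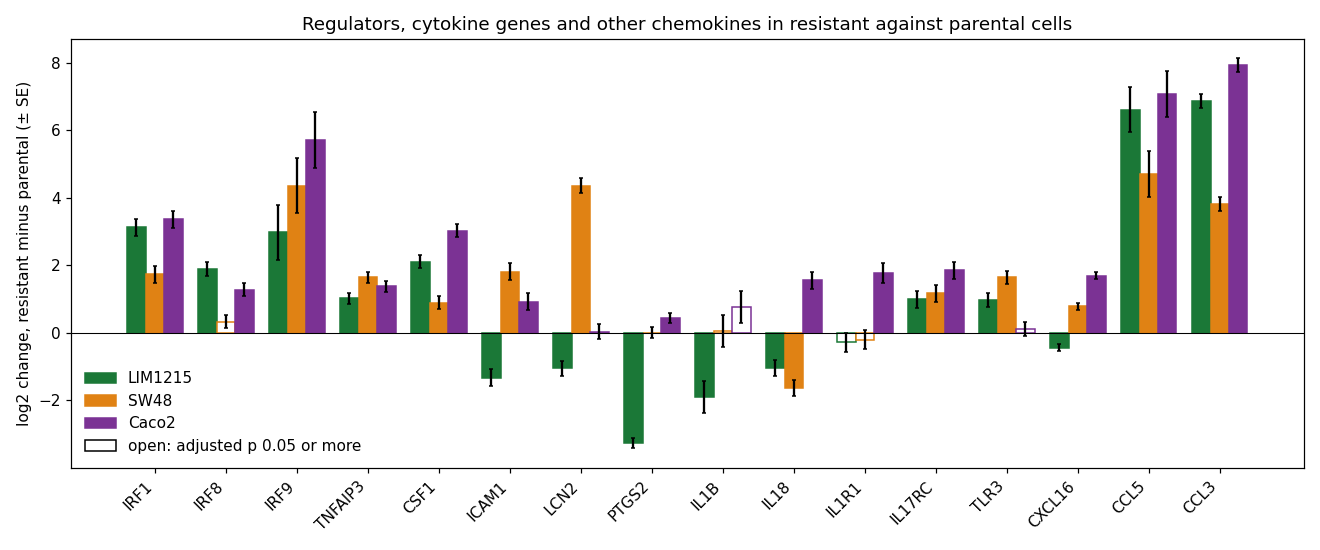
Log2 change in resistant against parental cells (y axis, with SE bars) for 16 genes around the chemokines, with a bar for each line. Filled bars passed the limma test at an adjusted p under 0.05; for genes near background in a group the bar is the difference of deposited values. IRF1, IRF9, TNFAIP3, IL17RC, CCL5 and CCL3 rise in all 3 lines, whereas ICAM1, LCN2, PTGS2 and CXCL16 differ in direction between lines.

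Of 9 measured proteins that bind or trim chemokines, 1 rose and 1 fell in LIM1215, 2 rose and 1 fell in SW48, and 3 rose and 1 fell in Caco2. DPP4, the protease that inactivates the CXCR3 ligands by trimming their amino end, fell 13.6-fold in SW48 (log2 change -3.77, limma adjusted p = 1.11e-11). In LIM1215 it rose 1.69-fold with overlapping arrays (limma adjusted p = 0.0291). Without parental replicate 3 the arrays did not overlap and the rise was 2.2-fold (limma adjusted p = 7.4e-05). The difference between these lines passed the test (limma adjusted p = 3.57e-10). SDC1 and SDC4, heparan sulfate proteoglycans that hold chemokines at the cell surface, rose 3.42-fold and 1.87-fold in Caco2, and SDC4 rose 3.79-fold in SW48. MMP1, a collagenase, fell 23.6-fold in Caco2 (log2 change -4.56, limma adjusted p = 8.34e-08) and was 15.6-fold higher again in withdrawal than in resistant cells.

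The genes closest in pattern were sought among 10498 genes above background somewhere, by Pearson r over the 27 arrays after each line was centred on its own mean; the arrays share lines and states, so r is a description. CXCL8 was closest to PHLDA1 (r = 0.972), PRSS2 (0.958) and SPRR2D (0.942), and CCL20 to ISG15 (0.926), INSIG1 (0.91) and HERC6 (0.888). All r values include LIM1215 parental replicate 3, on which CCL20 and ISG15 both stood high, and r without it is not given here. IL32 was closest to ANXA4 (0.936), ABCC3 (0.91) and BHLHE40 (0.909), and CXCL9 to SLC2A5 (0.955), TMT1A (0.952) and KLHL13 (0.95). For CXCL5 the nearest was POMK (0.871), for CXCL2 EMP3 (0.837) and for CXCL3 GSKIP (0.785). CXCL1 had the loosest match of the 8, with PER2 at 0.691. The neutrophil chemokines, CXCL8 among them, were above background only in LIM1215, CXCL9 only in resistant Caco2 cells, and CCL20 not in SW48. Values near background therefore enter the r of these genes.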

How the data were processed

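Labelled cDNA from 250 ng of total RNA per sample was hybridised, per the labels' protocols, to Affymetrix arrays of 1 colour that cover whole transcripts. The deposited table holds 24351 probe sets, whose values were read as log2 intensities from their range (1.09 to 18.8). What software, background correction and normalization the authors applied is not given in the sources used here. Of 21448 transcript probe sets, 17709 matched 1 gene through the platform annotation, giving 17687 genes, with the probe set of the highest mean kept where 20 genes had several. Group means were fitted over all 27 arrays with limma 3.58.1 in R 4.3.3 (18 residual and 4.12 prior degrees of freedom), tested on simulated data, and 12 contrasts were adjusted by Benjamini-Hochberg over all genes. Arrays give no count of molecules, so their number limits the precision.

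The 10 genes and all lists were chosen with earlier results of these data known. From each other list, the called genes with the largest change were named, at most 3 per direction and line, among those above background in 1 of the 2 groups; the 3 genes most like each member were found by Pearson r, and the text prints all 3 or the nearest. Same-numbered replicates did not pair (27 pairs, r from -0.04 to 0.07, none over 0.1). Promoter windows are RefSeq's, build GRCh38.p14. The alternatives were other scalings, filters, variance models, array weights, a replicate block and leaving out each array. Results on some items are not reported here.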

Additional observations from a re-analysis of the deposited data

Results flagged for a closer look

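The change in resistant against parental cells differed between lines, by limma's test of the difference itself, for these genes with a group above background. The LIM1215 change minus the Caco2 change was -3.52 for CCL20 (adjusted p = 6.96e-06), -2.88 for CXCL9 (1.89e-05), -2.40 for CXCL8 (2.65e-05), -1.80 for IL32 (0.000542) and -1.40 for CXCL2 (0.00437). The LIM1215 change minus the SW48 change was -2.35 for CXCL8 (4.58e-05) and -1.78 for CXCL5 (0.0122). The SW48 change minus the Caco2 change was -5.25 for CXCL9 (2.23e-09), -3.02 for CCL20 (3.96e-05) and -2.69 for IL32 (3.54e-06). For CXCL5 and CXCL8 the second line was near background in both states, as was Caco2 for CXCL2, SW48 for CXCL9 and CCL20, and LIM1215 for CXCL9. The differences of these genes that involve such a line therefore rest in part on deposited values near background. CXCL2 was above background in both LIM1215 states, and CXCL9 only in resistant Caco2 cells. When values below background were raised to it, the calls of CXCL9 and CXCL2 were lost. The differences became -0.54 for CXCL9 (limma adjusted p = 0.238) and -0.14 for CXCL2 (0.638) between LIM1215 and Caco2, and -0.57 for CXCL9 (0.174) between SW48 and Caco2.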

How the results depend on the processing

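Of 878 alternative values for 53 gene results, 814 kept their direction and side of the threshold, 42 lost the call, 9 gained it and 13 changed sign. The replicate block changed none of the 53 calls (4 of 10 genes in resistant against parental LIM1215 cells, as without it). For all following counts the cause was not tested except where fewer arrays or genes entered. The count of called genes was 0 in resistant against parental SW48 cells with quantile normalization. With the arrays of the line alone it was 2 in resistant and 1 in withdrawal against parental LIM1215 cells, and 1 in withdrawal against parental Caco2 cells. With values under background set to it, it was 2 in resistant against parental and 3 in withdrawal against resistant LIM1215 cells, 3 in each of the same 2 Caco2 comparisons that use resistant cells, and 2, 4 and 2 for the line differences of LIM1215 from SW48, LIM1215 from Caco2 and SW48 from Caco2. With array weights it was 5 in withdrawal against parental LIM1215 cells. Leaving out single arrays gave 3 to 5, 2 to 5 and 4 to 7 in LIM1215 (resistant against parental, withdrawal against parental, withdrawal against resistant), 0 to 1, 0 to 0 and 0 to 2 in SW48, 5 to 7, 0 to 0 and 6 to 6 in Caco2, and 4 to 5, 7 to 7 and 4 to 7 for the line differences.

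Signs turned near 0 in resistant against parental LIM1215 cells. With array weights CXCL1 was at 0.0012, CXCL2 at 0.064 and CXCL3 at 0.053. Leaving out single arrays gave -0.31 to 0.028 for CXCL1, -0.092 to 0.10 for CXCL2, -0.32 to 0.10 for CXCL3 and -0.16 to 0.63 for IL32. For the first 3 genes the sign was positive without parental replicate 3 (CXCL2 also without resistant replicate 2, at 0.056), and for IL32 negative without parental replicate 1 or 2. Set to background, CXCL11 was at -0.28 in withdrawal against resistant LIM1215 cells, and CXCL2, CXCL10 and CXCL11 at 0.11 in the same Caco2 comparison. Calls near the threshold were CXCL5 in resistant LIM1215 cells (lost in 4 of 15 alternatives), CXCL8 (3 of 15) and CCL20 (6 of 15) in withdrawal against parental, CXCL3 in withdrawal against resistant (6 of 16) and IL32 in resistant SW48 cells (6 of 16).

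Over all genes, the arrays of the line alone gave 1230 calls for 1913 in resistant and 2227 for 3724 in withdrawal against parental LIM1215 cells, and 380 for 722 in withdrawal against parental SW48 cells. Array weights gave 3268 and 5956 in the same LIM1215 comparisons. Background-set values gave 3147 for 4842, 524 for 933 and 2742 for 4364 in Caco2 (resistant against parental, withdrawal against parental, withdrawal against resistant). Leaving out single arrays gave 2260 and 2304 in withdrawal against parental LIM1215 cells and 448 to 474, or 1099 without LIM1215 parental replicate 3, in withdrawal against parental SW48 cells.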

Other observations

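The interferon-induced gene IFIT1 was at 12.64, 12.66 and 12.57 in resistant Caco2 cells, at 3.05, 3.98 and 3.21 in withdrawal cells and at 3.07, 3.04 and 2.99 in parental cells. ISG15, whose pattern was the nearest to that of CCL20, was between 11.67 and 12.05 in resistant, 5.56 and 5.86 in withdrawal and 5.46 and 5.97 in parental Caco2 cells. Both genes were also high on LIM1215 parental replicate 3, with 13.16 for IFIT1 and 11.53 for ISG15, against 6.17 and 6.82 for IFIT1 and 7.44 and 7.81 for ISG15 on the other parental arrays. In withdrawal LIM1215 cells MMP1 was at least 12.5-fold higher than in parental cells (limma adjusted p = 1.97e-07, and at least 14.4-fold without parental replicate 3). In resistant LIM1215 cells MMP1 was lower than in parental cells, as in Caco2, but both LIM1215 states were near background. The difference of deposited values was -1.90 (limma adjusted p = 0.00935), and -0.92 without parental replicate 3 (limma adjusted p = 0.0191). CXCL8, IL1B and IL18 were also higher in withdrawal than in parental LIM1215 cells, IL18 by 1.8-fold (limma adjusted p = 0.014). In Caco2, the myeloid and B cell markers had a log2 summed level of 13.58 to 13.65 in resistant cells, 11.36 to 11.65 in withdrawal cells and 10.15 to 10.47 in parental cells, with 4, 3 and 3 of 12 above background.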
